A study of Mus musculus with 32 samples.

Results

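The 39 interferon-stimulated genes described here were chosen by name, as genes known to be induced by interferon, from the 24454 gene IDs of a count table of laser-captured mouse mammary tissue. All 39 were found in the table and all 39 had enough counts to be tested. They were grouped by role into 13 antiviral effectors, 4 RNA and DNA sensors, 3 transcription factors, 7 genes of ISG15, ubiquitin and ADP-ribose modification, 4 GTPases of the interferon-gamma response, 1 chemokine and 7 other induced genes. No measured value of this study entered the choice by its rule, although results of these data were known when the list was drawn up.

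All 32 libraries came from female mice that carried MMTV-PyMT; R26-CBW; K8-CreERT2 and received 5 mg tamoxifen at 5 weeks of age, so every group shares this genotype and treatment. In these mice the mammary tumour virus promoter drives the polyoma middle T oncoprotein, and a tamoxifen-activated Cre under keratin 8 control switches on 1 of several fluorescent colours in luminal cells and their descendants. Patches of 1 colour were cut from 7 µm sections once tumours were large, and grouped by the stage in the labels, with 3 libraries of normal gland, 5 of hyperplasia, 8 of adenoma, 9 of carcinoma and 7 of lung metastasis. Normal 28 and 30 were pools from several places, with their colour given as Pool, and normal 18 is labelled tumour core. All normal gland thus came from tumour-bearing animals. The series gives n = 3 without tying regions to animals. If this means 3 animals, regions share animals and p-values over regions are too small. Libraries are named by stage and by the number in their label, which is not an order.

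Total counts ran from 2688611 to 19585351 per library and between 10258 and 17667 genes had a count. Hyperplasia 22, metastasis 42 and adenoma 51 had fewer than 11000 detected genes. All 10 luminal epithelial markers had counts in each stage, with a summed level of 1263 to 4664 CPM (counts scaled to library size by TMM) per library. Luminal markers were thus present throughout, but markers of macrophages and antigen presentation were also present in every stage, with sums of 164 to 5319 CPM. In normal gland, fibroblast markers summed to 769 to 3446 CPM and adipocyte markers to 80.4 to 716, beside 1263 to 1931 for luminal markers. In whole patches, fewer cells of a type and less RNA per cell cannot be told apart.

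Interferons are secreted proteins that warn neighbouring cells of infection or damage. Type I and type III interferons act through JAK kinases to assemble a complex, with STAT2 and IRF9 among its parts, that binds the interferon-stimulated response element, whereas interferon gamma acts through the gamma-activated site. The genes switched on include sensors and effectors against viruses, and their activity in mammary tumours is known both from immune cells and from the tumour cells themselves.

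The response element could be read in the promoters of many of these genes, and examples from different roles are shown. Whether the element goes with the joint variation between patches was not tested. A core of the element, GAAA followed by any 2 bases and GAAA, on either strand, was sought in RefSeq promoter windows of build GRCm38.p6, from 250 bases before to 50 bases after each start. Of the 39 genes, 29 had a window, and 16 of these 29 (55.2%) held the core, against 3.99% of all 27025 genes with windows. The gamma-activated site, TTCNNNGAA, whose letters read the same way on both strands, was in 7 of 29 (24.1%), against 9.55% of all genes. Parp14, Parp9, Usp18, Oas2, Mx1, Dhx58, Rtp4, Ifi27l2a, Mx2 and Zbp1 had no entry. In the 6 stretches below, written along each gene's own strand, capitals mark the core, read on the opposite strand where it appears as TTTC, 2 bases and TTTC.
Isg15: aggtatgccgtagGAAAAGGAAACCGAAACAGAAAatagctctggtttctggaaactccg
Ifit1: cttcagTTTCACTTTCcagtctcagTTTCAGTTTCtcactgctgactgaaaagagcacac
Ifit3: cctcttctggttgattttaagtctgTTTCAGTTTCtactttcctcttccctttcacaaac
Stat2: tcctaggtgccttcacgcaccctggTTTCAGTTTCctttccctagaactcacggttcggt
Igtp: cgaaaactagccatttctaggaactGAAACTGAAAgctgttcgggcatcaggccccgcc
Cxcl10: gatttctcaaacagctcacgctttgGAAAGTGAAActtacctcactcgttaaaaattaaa
They lie at chr4:156200850-156200909 on the minus strand for Isg15, chr19:34640779-34640838 (plus) for Ifit1, chr19:34583382-34583441 (plus) for Ifit3, chr10:128270251-128270310 (plus) for Stat2, chr11:58199497-58199555 (plus) for Igtp and chr5:92349068-92349127 (minus) for Cxcl10. None of the 6 overlaps an annotated exon, and all lie upstream of the start site used for the window. The Ifit3 stretch is within the RefSeq span of the gene, which opens farther upstream. Within these stretches Isg15 carries 3 overlapping copies of the core, Ifit1 carries 2 and the others 1, and the Ifit3 window holds 1 more copy outside its stretch. A match describes letters, not binding.

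The 39 genes differed widely between patches of 1 stage, and they differed together. The mean log2(CPM + 1) over the 39 genes, given as a description, was 4.01, 4.55 and 4.73 in the normal libraries. It ran from 1.75 to 5.00 in hyperplasia with a median of 3.08, from 1.66 to 5.87 in adenoma with a median of 2.44, from 2.49 to 5.75 in carcinoma with a median of 4.10 and from 2.19 to 6.87 in metastasis with a median of 3.72. The mean over all genes tested stayed between 2.14 and 3.08. Adenoma 36 and hyperplasia 46 were the highest of their stages, with the next highest at 3.97 and 3.37. Metastasis 58 and 42 lay above the other metastases, and carcinoma 6, 39, 54 and 8 formed the upper end of a wide carcinoma range. Dixon's test, described near the end, flagged no library mean in any stage tested. All 3 normal libraries lay inside the range of each of the other stages.

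**Figure D1:**
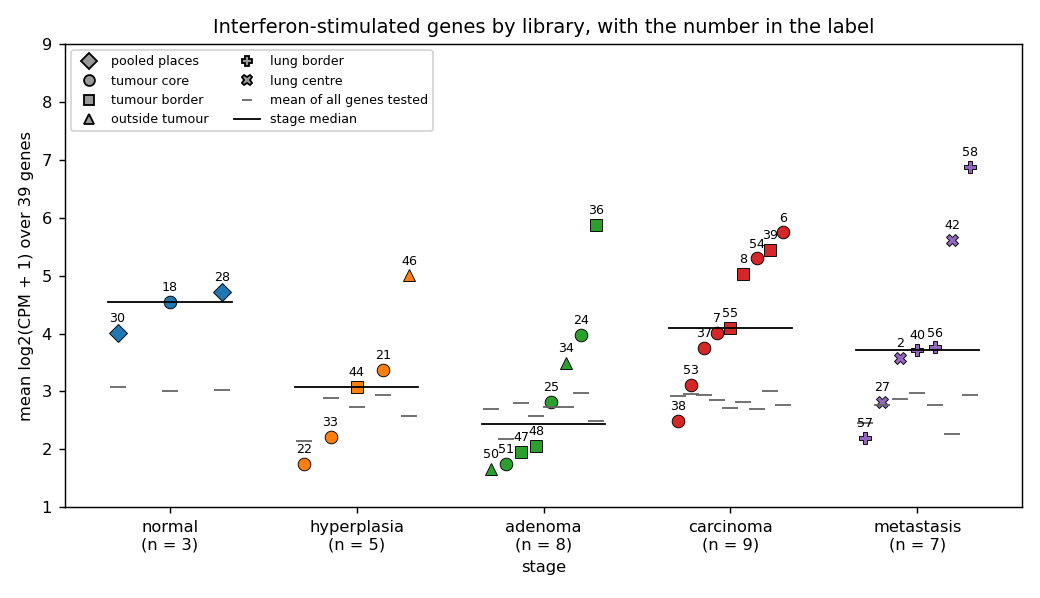
Mean log2(CPM + 1) over the 39 interferon-stimulated genes in each library (points, shaped by the position in the labels and numbered as in the labels), with the stage median (line) and the mean over all genes tested in the same library (grey dash). Metastasis 58 (6.87) and adenoma 36 (5.87) are the highest libraries, and adenoma 50 (1.66) is the lowest.

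Single libraries held the highest value of their stage for most of the genes. Adenoma 36, a patch at the tumour border, was the highest of 8 adenomas for 30 of 39 genes (76.9%), while it was highest for 15% of all genes with a count in adenoma. Metastasis 58, from the lung border, was highest for 28 of 39 (71.8%, against 14.3%), and hyperplasia 46, outside the tumour, for 23 of the 38 with a count in hyperplasia (60.5%, against 19.5%). Normal 28 was highest for 22 of 39 (56.4%, against 31.4%) and carcinoma 6 for 14 of 39 (35.9%, against 12.7%). The same libraries led the 38 further interferon-induced genes listed separately, with 27 (71.1%) highest in adenoma 36, 23 (60.5%) in metastasis 58, 19 (50%) in hyperplasia 46 and 12 (31.6%) in carcinoma 6.

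**Figure D2:**
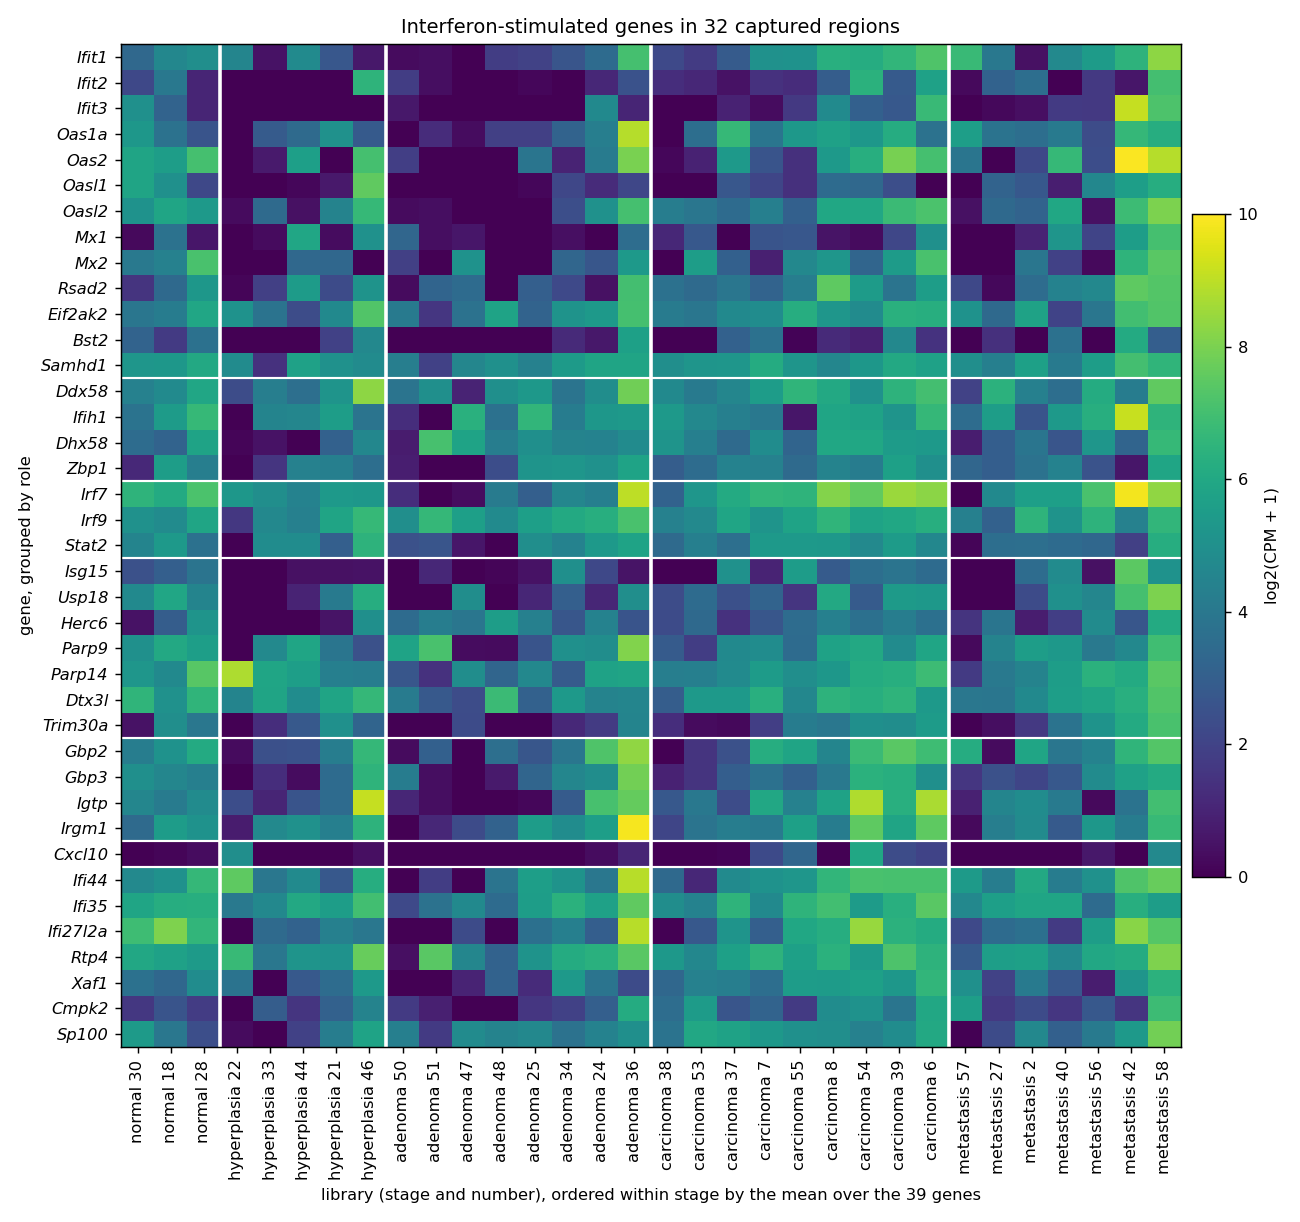
Level of each of the 39 genes (rows, grouped by role) in each of the 32 libraries (columns, grouped by stage and ordered within a stage by the mean over the genes), as log2(CPM + 1) from 0 (dark) to 10 (yellow). The right-hand column of hyperplasia (46), adenoma (36) and metastasis (58) is bright across most roles, with gaps such as Ifit3 and Isg15 in adenoma 36.

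The spread within stages was wide beside the median of genes in the same range of mean CPM, a set not matched gene by gene for level. The pooled within-stage SD of log2(CPM + 1) had a median of 2.05 over the 39 genes, against 1.38 over all 19907 genes tested and 1.57 over the 12127 genes whose mean CPM lay between those of the lowest and highest of the 39. The SD of 32 of 39 genes exceeded that last median. Oas2, an RNA-activated synthase of the antiviral response, had the widest spread (3.07), followed by the immunity GTPases Igtp (2.64) and Gbp2 (2.56) and by Ifi27l2a (2.49). Samhd1, which depletes DNA precursors, had the narrowest (1.09), with the transcription factor Irf9 (1.14), the ubiquitin ligase Dtx3l (1.202) and Ifi35 (1.23). By stage the median SD of the 39 genes was lowest in normal gland (0.86, against 1.10 for the genes in that CPM range). It was 1.59 in carcinoma (1.15), 1.99 in adenoma (1.63), 2.04 in hyperplasia (1.67) and 2.13 in metastasis (1.57).

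**Figure D3:**
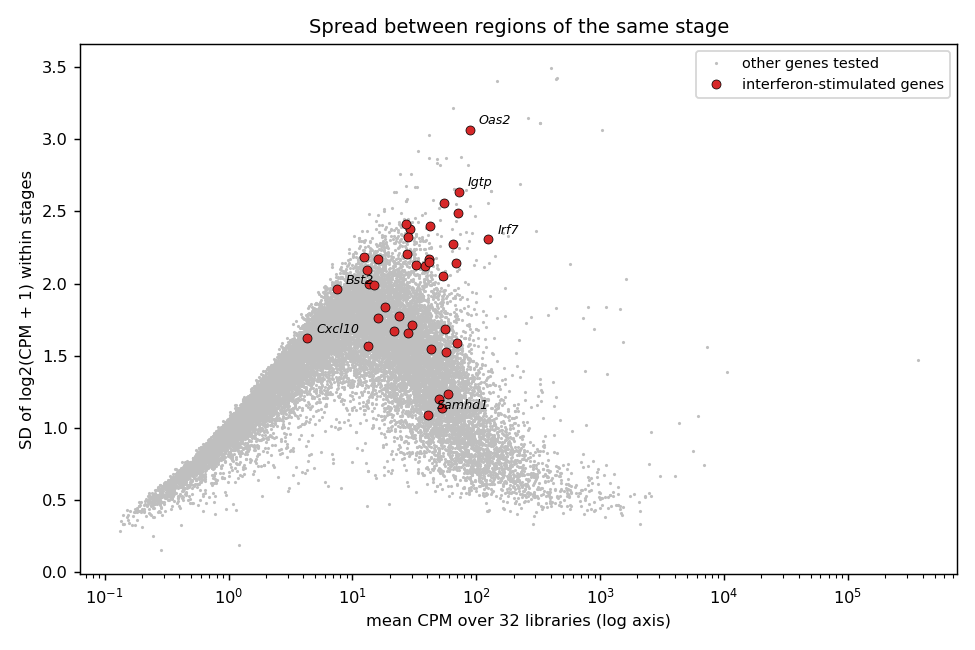
Pooled within-stage SD of log2(CPM + 1) against the mean CPM over 32 libraries (log axis), for the 39 interferon-stimulated genes (red) and the other genes tested (grey). Oas2 (SD 3.07) lies at the upper edge of the cloud and Samhd1 (1.09) lies within its lower part.

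Across the 32 libraries, after subtraction of stage means, Spearman's rho between pairs of the 39 genes had a median of 0.41 over 741 pairs, of which 732 were positive. Pairs of 1 of the 39 with another gene had a median of 0.009. The part of depth, amplification or shared animals in these correlations was not tested. The closest pair was Gbp3 with Ifi27l2a (rho 0.80), then Oasl2 with Igtp and Eif2ak2 with Xaf1 (both 0.77). Gbp3, Irf7 and Gbp2 had the highest medians with the other genes (0.54, 0.53 and 0.52), and Herc6, Mx1 and Cxcl10 the lowest (0.23, 0.27 and 0.27). Close neighbours were not closer than the rest in every case: the divergent pair Rsad2 and Cmpk2 had a rho of 0.25, and Parp9 and Dtx3l, whose annotated spans overlap, 0.23. The number of detected genes had a median rho of 0.03 with the 39 genes, and with hyperplasia 22, metastasis 42 and adenoma 51 left out the median over pairs was 0.42.

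**Figure D4:**
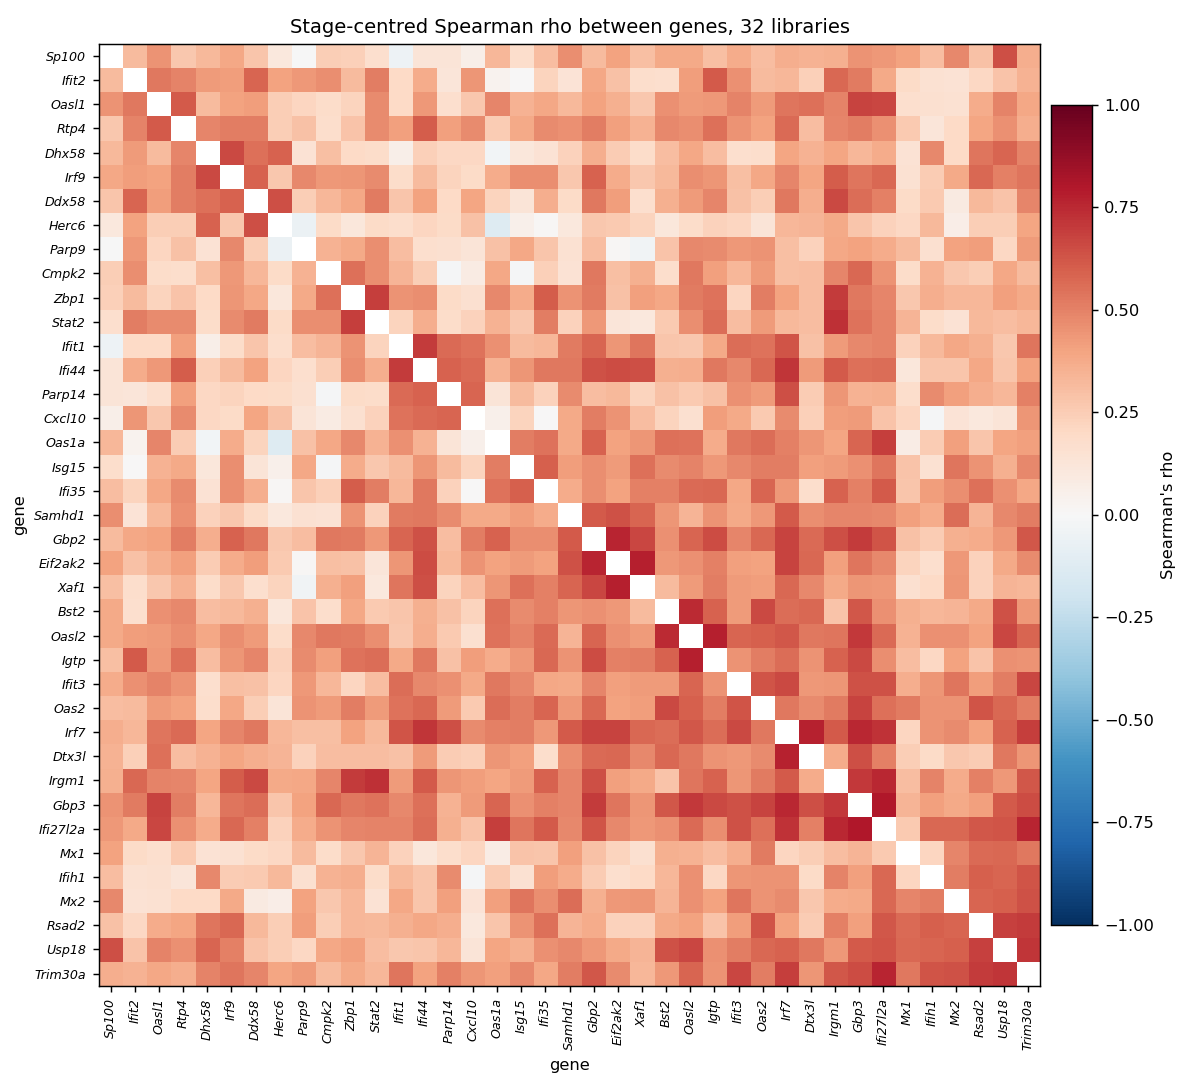
Stage-centred Spearman's rho between each pair of the 39 genes over 32 libraries (blue, negative; red, positive), ordered by average-linkage clustering. Of the 741 pairs 732 are positive, and the strongest is Gbp3 with Ifi27l2a (0.80).

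The libraries with high levels did not share 1 pattern. In metastasis 42, Oas2 (985 CPM), Irf7 (912), Ifit3 (561), Ifih1 (567) and Isg15 (179) had the highest values of all 32 libraries, while Igtp (13.0), Irgm1 (17.3) and Stat2 (2.70) did not leave the range of the other metastases. In adenoma 36, Irgm1 (932), Irf7 (516), Ifi44 (488), Ifi27l2a (487) and Oas1a (477) were high, with Ifit3 at 1.06 and Isg15 at 0.424 CPM. In hyperplasia 46, Igtp (555) and Oasl1 (186) were high and Ifit1 was at 0.576 CPM. These are values of single libraries.

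Markers of immune cells moved with some of these libraries and not with others. The sum over 17 macrophage and antigen presentation markers was 2383 CPM in adenoma 36, the highest of a stage with a range of 179 to 2383, and the sum over 14 markers of T, NK and B cells was 727 CPM in a range of 8.79 to 727, with Ptprc at 605, Nkg7 at 82.7 and Cd8a, Cd4 and Ms4a1 at 0. In metastasis 58, with the highest level of the 39 genes in the study, the macrophage sum was 337 CPM in a range of 305 to 921, all 17 markers having a count, and the T, NK and B sum was 11.9 in a range of 4.01 to 411, with Cd8a, Nkg7 and Ms4a1 at 0. Hyperplasia 46 had 546 and 48.3 CPM (ranges 253 to 2174 and 10.9 to 48.3), and hyperplasia 22, with the lowest level of the 39 genes in its stage, had the highest macrophage sum, 2174 CPM. Carcinoma 6 had 610 and 709 CPM (ranges 164 to 2013 and 3.72 to 709), of which Jchain, a gene of antibody-secreting cells, made up 689. Siglech, a marker of plasmacytoid dendritic cells, was at 121 CPM in carcinoma 6, 3.07 in adenoma 36 and 0.102 in metastasis 58. The part of such cells in the levels was not tested. Luminal markers in adenoma 36 and metastasis 58 summed to 4308 and 2052 CPM, the highest of 8 adenomas and the lowest of 7 metastases. Fibroblast and basal markers summed to 1356 and 327 CPM in adenoma 36, both the highest of the adenomas. Among metastases the basal sum was highest in 58 (234 CPM) and the fibroblast sum in 42 (213 CPM). In hyperplasia both sums were highest in 44. The part of these cells was not tested either.

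Normal gland, hyperplasia, adenoma, carcinoma and metastasis were then compared gene by gene with edgeR's quasi-likelihood test, adjusted by Benjamini-Hochberg over all 19907 genes. In a single edgeR test over the 5 stages, Ifit3 passed (adjusted p = 0.0391), 1 of 39 genes or 2.56%, against a background of 3.58% of all genes. At an unadjusted p under 0.05 there were 3 of 39 (7.69%), Ifit3, Isg15 and Oasl1, against 20.9% of all genes. The share of the 39 that passed was thus not above the background. The median level was highest in normal gland for 14 of the 39 genes (35.9%, against 42.6% of all genes tested) and in carcinoma for 13 (33.3%, against 16.6%), and it was lowest in hyperplasia alone for 17 (43.6%, against 17.2%) and in adenoma alone for 15 (38.5%, against 13%).

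Ifit3, which binds viral RNA together with its relatives, had 8.02 CPM in normal 18, 1.08 in normal 28 and 31.2 in normal 30 and no count in any of the 5 hyperplasias. It had a count in 3 of 8 adenomas, with a median of 0 and a highest value of 26.1 CPM in adenoma 24. Carcinomas ran from 0 to 109 CPM with a median of 2.19, and metastases from 0 to 561 with a median of 2.19. Hyperplasia was thus the only stage with no count at all, though most adenomas were also at 0. The high values belonged to carcinoma 6 and metastases 58 and 42. Against a floor of 3 counts over the hyperplasia group (0.0665 CPM), the means were at least 202-fold higher in normal gland, 52.1-fold in adenoma, 254-fold in carcinoma and 1529-fold in metastasis. These bounds rest largely on single libraries: the mean was 3.46 CPM in adenoma and 0.232 without adenoma 24, 16.9 in carcinoma and 5.42 without carcinoma 6, 102 in metastasis and 25.1 without metastasis 42, and 13.4 in normal gland and 4.55 without normal 30. The call was lost without any 1 of the 5 hyperplasias (adjusted p = 0.0511 to 0.0574), without metastasis 42 (0.130) or 58 (0.0502), by DESeq2 (0.0946) and limma voom (0.0823), with the number of detected genes in the model (0.0588) and without hyperplasia 22, metastasis 42 and adenoma 51 together (0.229). Ifit3 lies beside its near-identical copy Ifit3b, and how reads were divided between them is not given.

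The other IFIT genes did not pass. Ifit1, which binds RNA lacking the usual cap methylation, had 9.44, 23.7 and 29.9 CPM in the normal libraries and 0.419, 0.576, 5.51, 22.4 and 26.4 in hyperplasia. Its adenomas ran from 0 to 133 CPM with a median of 2.71, carcinomas from 2.32 to 153 with a median of 33.2 and metastases from 0.371 to 311 with a median of 43.4. The ranges overlapped in all stages, with adenoma 36, carcinoma 6 and metastasis 58 at the top of theirs. Ifit2 was at 0 in 4 of 5 hyperplasias and at 89.4 CPM in hyperplasia 46, against 1.08, 3.49 and 15.1 in normal gland. It reached 4.77 CPM in adenoma, 83.3 in carcinoma and 128 in metastasis, with medians of 0.203, 1.68 and 2.19.

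The OAS family makes a messenger that activates an RNA-degrading enzyme. Oas2 had 46.1, 55.6 and 131 CPM in normal gland and 0, 0, 0.628, 49.7 and 133 in hyperplasia. Its medians were 1.81 CPM in adenoma (0 to 255), 40.4 in carcinoma (0.132 to 246) and 13.9 in metastasis (0 to 985). Absence and levels above 100 CPM thus occurred within the same stage. Oasl1, a relative without synthase activity, had 3.50, 31.1 and 55.8 CPM in normal gland and 0, 0, 0.122, 0.622 and 186 in hyperplasia, the last in hyperplasia 46. It stayed at or below 3.42 CPM in all 8 adenomas (median 0.0601) and at or below 10.3 in all 9 carcinomas (median 3.29), and reached 74.0 in metastasis (median 8.02). The fitted log2 difference of adenoma from normal gland was -4.81 ± 1.78 (SE, adjusted p = 0.181 by edgeR and 0.028 by limma voom). Oasl1 and Oasl2 are paralogs, and so are Oas1a and the other Oas1 genes, so that reads may be shared among them.

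The remaining effectors were Oas1a, Oasl2, Mx1, Mx2, Rsad2, Eif2ak2, Bst2 and Samhd1, none of which passed. Their highest values were in metastasis 58 for Mx1 (133 CPM), Mx2 (175) and Oasl2 (262), in metastasis 42 for Bst2 (68.6) and Samhd1 (130), in adenoma 36 for Oas1a (477), in carcinoma 8 for Rsad2 (184) and in hyperplasia 46 for Eif2ak2 (154). Samhd1 and Eif2ak2, the RNA-activated kinase that halts translation, had a count in all 32 libraries, whereas Bst2, which tethers budding virus, had none in 13.

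Among the sensors of foreign RNA and DNA, Ifih1, which detects long double-stranded RNA, had 13.1, 44.4 and 103 CPM in normal gland and 0, 13.3, 21.6, 23.2 and 46.9 in hyperplasia. Its medians were 27.6 CPM in adenoma (0 to 95.7), 35.0 in carcinoma (0.505 to 99.5) and 46.8 in metastasis (4.98 to 567). All stages overlapped, and metastasis 42 alone exceeded 103 CPM. Ddx58, the sensor RIG-I, was highest in hyperplasia 46 (312 CPM), Dhx58 in adenoma 51 (136) and the nucleic acid sensor Zbp1 in metastasis 58 (58.2).

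Of the transcription factors, Irf7, which amplifies the production of type I interferon, had the highest mean level of the 39 genes. It had 68.1, 89.1 and 143 CPM in normal gland and 20.4, 29.9, 38.3, 38.5 and 40.3 in hyperplasia. The fitted difference between hyperplasia and normal gland did not pass by edgeR. Adenomas ran from 0 to 516 CPM with a median of 12.0, and the second highest after adenoma 36 was at 23.2. Carcinomas ran from 7.81 to 357 CPM (median 93.8) and metastases from 0 to 912 (median 49.5). Stat2, a part of the response complex, had 12.4, 21.8 and 41.2 CPM in normal gland and 0, 7.11, 27.8, 28.5 and 87.8 in hyperplasia, with medians of 12.7 in adenoma (0 to 54.1), 25.03 in carcinoma (9.92 to 43.6) and 10.2 in metastasis (0.0914 to 73.1). Irf9, its partner, had a count in all 32 libraries.

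Isg15 is a ubiquitin-like protein joined to other proteins. It had 4.51, 7.16 and 13.5 CPM in normal gland and 0, 0, 0.356, 0.366 and 0.412 in hyperplasia. Its medians were 0.422 CPM in adenoma (0 to 30.4), 10.1 in carcinoma (0 to 45.7) and 10.6 in metastasis (0 to 179). The fitted log2 difference of hyperplasia from normal gland was -5.08 ± 2.11 (SE, edgeR adjusted p = 0.310). Parp14, which attaches ADP-ribose, had 26.1, 37.1 and 169.7 CPM in normal gland and 18.1, 18.7, 48.1, 58.01 and 430.2 in hyperplasia, the last in hyperplasia 22. Its medians were 16.6 in adenoma (1.71 to 56.6), 37.7 in carcinoma (18.3 to 114) and 46.5 in metastasis (2.29 to 172). Of the other genes of this role, Usp18, which removes ISG15, Herc6, which attaches it, Dtx3l and Trim30a were highest in metastasis 58 (257, 68.5, 153 and 141 CPM), and Parp9 in adenoma 36 (273).

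The GTPases of the interferon-gamma response guard against intracellular microbes. Igtp had 17.1, 23.2 and 27.2 CPM in normal gland and 1.05, 4.10, 5.01, 10.2 and 555 in hyperplasia. Its medians were 0.708 CPM in adenoma (0 to 196), 53.5 in carcinoma (4.03 to 451) and 16.03 in metastasis (0.182 to 125). For Igtp, hyperplasia 46 exceeded every other library in the study. Irgm1 had 10.1, 32.8 and 45.2 CPM in normal gland and 0.683, 18.9, 25.3, 31.99 and 87.8 in hyperplasia, with medians of 17.8 in adenoma (0 to 932), 17.7 in carcinoma (3.31 to 184) and 18.2 in metastasis (0.183 to 105). The medians of these last stages were alike while their highest values were not. Gbp2 and Gbp3 reached 325 and 235 CPM in adenoma 36 and belong to a family of similar genes among which reads may be divided.

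Cxcl10, the only chemokine in the list, attracts T cells and was at or near 0 in most patches. It had 0, 0.0863 and 0.269 CPM in normal gland and 0, 0, 0, 0.329 and 29.6 in hyperplasia, the last in hyperplasia 22. It had a count in 2 of 8 adenomas (highest 1.06 CPM), in 6 of 9 carcinomas (median 3.01, highest 61.0 in carcinoma 54) and in 2 of 7 metastases (highest 24.9 in metastasis 58). Its median was above 1 CPM in carcinoma alone, and the fitted log2 difference of carcinoma from adenoma was 5.62 ± 2.23 (SE, edgeR adjusted p = 0.220).

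Of the other induced genes, Ifi44 had 25.2, 32.004 and 99.5 CPM in normal gland and 5.78, 14.5, 26.7, 74.3 and 180.2 in hyperplasia, with medians of 14.0 in adenoma (0 to 488), 37.5 in carcinoma (1.16 to 138) and 43.0 in metastasis (17.4 to 202). Ifi35 had 58.3, 74.7 and 76.7 CPM in normal gland and 15.6, 24.1, 46.5, 64.3 and 126 in hyperplasia, with medians of 36.3 in adenoma (3.62 to 189), 79.0 in carcinoma (20.6 to 171) and 49.2 in metastasis (10.4 to 77.0). Neither separated any pair of stages. Ifi27l2a had 94.4, 118 and 267 CPM in normal gland and 0, 7.81, 9.84, 14.7 and 19.6 in hyperplasia. Its fitted log2 difference of hyperplasia from normal gland was -3.94 ± 1.74 (SE, edgeR adjusted p = 0.342). Its medians were 5.35 CPM in adenoma (0 to 487), 61.2 in carcinoma (0 to 354) and 11.8 in metastasis (2.20 to 297). Adenoma 36 held the only adenoma value above 18.8. Rtp4, a chaperone of membrane receptors, had 43.0, 52.1 and 62.6 CPM in normal gland and 14.7, 32.9, 35.3, 104 and 203 in hyperplasia, with medians of 51.8 in adenoma (0.339 to 175), 50.1 in carcinoma (23.7 to 145) and 50.2 in metastasis (6.12 to 263). Its ranges overlapped in all stages. Xaf1, Cmpk2 and the nuclear body protein Sp100 peaked at 94.2 CPM in carcinoma 6 and at 114 and 232 in metastasis 58.

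Levels per kilobase of exon are given as a description only, because reads need not follow exon length after amplification with oligo-dT primers. The exon length used was 463 bases for Ifi27l2a and 9292 for Herc6. On that scale Ifi27l2a had the highest mean over the 32 libraries (154 CPM per kb), followed by Igtp (35.6), Ifi35 (34.5), Irf7 (32.98) and Rtp4 (32.9), and Herc6 (1.43) and Cxcl10 (1.91) the lowest. Differences among Igtp, Ifi35, Irf7 and Rtp4 were small beside the spread over libraries.

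Between pairs of stages, none of the 39 genes passed by edgeR in any of 7 comparisons, and the SE of a gene's log2 difference had a median over the genes of 1.04 to 1.55. In hyperplasia against normal gland the adjusted background was 0% of all genes, and at an unadjusted p under 0.05 there were 3 of 39 (7.69%), all lower, against 12.4% of all genes (3.68% higher and 8.74% lower). These were Ifit3, Isg15 and Ifi27l2a. The median log2 difference was -0.46 over the 39 genes and 0 over all genes, or -1.18 without hyperplasia 46. DESeq2 called Ifit3 alone, at a log2 difference of -24.9, a size that the lack of counts in hyperplasia leaves undetermined. Limma voom called none. Markers of T, NK and B cells had a median of -4.14 over 13 tested genes in the same comparison, with 5 lower at an unadjusted p under 0.05, and macrophage markers -1.44 over 17. Fibroblast markers had a median of -2.16 over 9 and adipocyte markers -2.06 over 5. Luminal and lung epithelial markers went the other way, with 0.88 over 10 and 1.84 over 8. The part of these cells in the differences was not tested.

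In adenoma against hyperplasia the background was again 0%, and 7 of 39 (17.9%) had an unadjusted p under 0.05, 3 higher and 4 lower, against 14.8% of all genes (7.4% in each direction). Ifit3 (log2 8.14 ± 2.85), Isg15 (4.20 ± 1.89) and Dhx58 (2.59 ± 1.15) were higher in value and Oasl1 (-5.13 ± 1.70), Cxcl10 (-5.04 ± 2.26), Ifit2 (-3.99 ± 1.74) and Parp14 (-2.30 ± 0.79) lower (± SE). Single libraries moved most of these values. Oasl1 and Ifit2 changed sign without hyperplasia 46 (2.33 and 6.47), and Cxcl10 without hyperplasia 22 (0.88). Parp14 was -0.65 without hyperplasia 22, Isg15 1.73 without adenoma 34 and Ifit3 4.35 without adenoma 24, while Dhx58 lay between 2.04 and 4.20 whichever library was left out. The median over the genes was 0.29 (0.06 over all genes), -0.86 without adenoma 36 and 1.29 without hyperplasia 46. DESeq2 called Ifit3, at a log2 difference of 22.6 from a hyperplasia group without counts, and limma voom called none.

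In carcinoma against adenoma the background was 0%, and 3 of 39 (7.69%) had an unadjusted p under 0.05, all higher, against 12.6% of all genes (7.61% higher and 4.96% lower). They were Cxcl10, Ifit2 (log2 3.93 ± 1.64, SE) and Xaf1 (2.12 ± 0.999). Of the 39 genes 28 were higher in value (71.8%, against 50.6% of all genes), with a median log2 difference of 0.73, against 0.02. Without adenoma 36 the median was 1.75, against 0.04 over all genes, with none past the adjusted threshold. DESeq2 and limma voom also called none.

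In metastasis against carcinoma the background was 0.0151%, and none of the 39 genes had an unadjusted p under 0.05, against 10.9% of all genes (5.21% higher and 5.66% lower). The median was 0.27 (-0.01 over all genes), or -0.32 without metastasis 58 and -0.03 without metastasis 42. In carcinoma against normal gland (background 0.00502%) and metastasis against normal gland (0.0251%, with 0.01% higher and 0.0151% lower) none had an unadjusted p under 0.05 either. The background was 8.17% of all genes (2.45% higher and 5.72% lower) in the former and 9.8% (3.04% and 6.76%) in the latter. Their medians were 0.36 and 0.58, against 0.10 for all genes in both, and turned to -0.03 without carcinoma 39 and -0.18 without metastasis 58. In adenoma against normal gland (background 0.00502%) 1 of 39 (2.56%), Oasl1, had an unadjusted p under 0.05 and was lower, against 13.1% of all genes (3.84% higher and 9.22% lower), and the median was -0.18 (0.07 over all genes), or -1.24 without adenoma 36. DESeq2 called none in these 4 comparisons, and limma voom called Oasl1 and Ifi27l2a lower in adenoma than in normal gland. The comparisons that share a stage share its libraries.

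Scaling moved the level against normal gland for all genes. With DESeq2-type size factors the median over all genes of hyperplasia against normal gland was -0.35 and that over the 39 genes -1.01, and in carcinoma against normal gland -0.31 and -0.17, in place of 0.10 and 0.36. The 39 genes kept their place above or below the median of all genes in both. With limma voom the median over the 39 genes was of the opposite sign in adenoma against hyperplasia (-0.48), metastasis against carcinoma (-0.37) and metastasis against normal gland (-0.25).

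**Figure D5:**
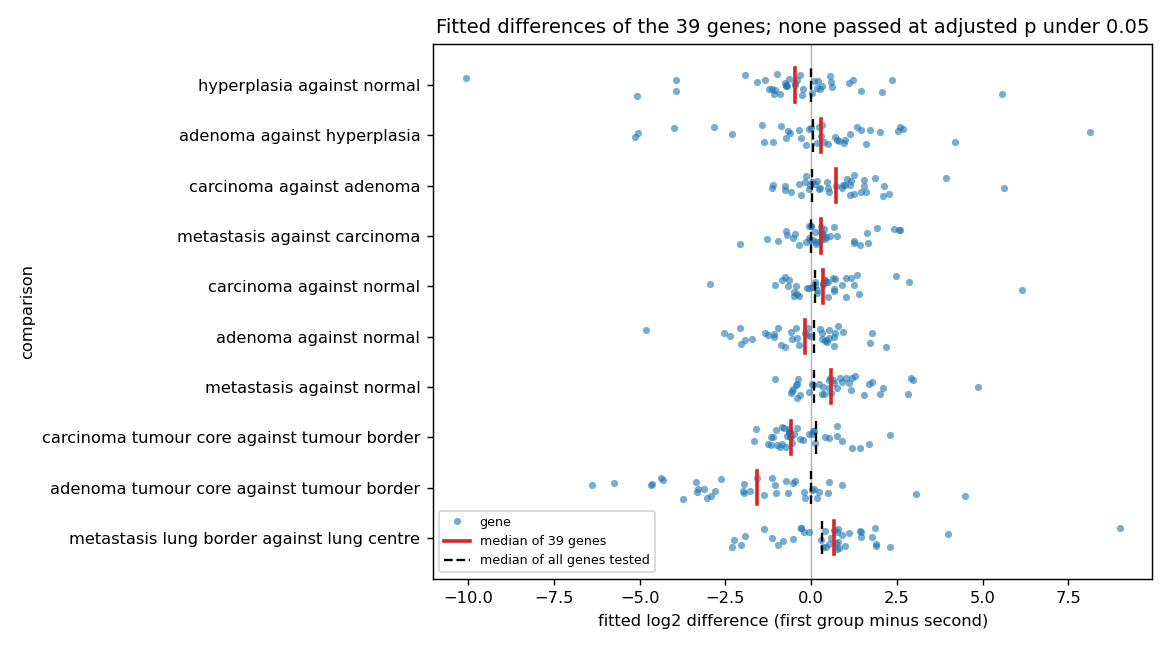
Fitted log2 difference of each of the 39 genes (points, spread vertically for legibility) in the 7 comparisons of stages and the 3 of positions, with the median over the 39 genes (solid) and over all genes tested (dashed). None of the points passed at an adjusted p under 0.05, and the median is farthest from that of all genes for the core against the border of adenomas (-1.57 against 0).

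Position within a stage was compared in a fit with 22676 genes. In adenoma, the core (3 libraries) against the border (3), no gene of the 39 passed (background 0%), and 7 (17.9%) had an unadjusted p under 0.05, all lower in the core, against 9.45% of all genes (4.82% higher and 4.63% lower). These were Irf7 (log2 -4.33 ± 1.505), Ifi27l2a (-4.68 ± 1.89), Oas1a (-4.39 ± 1.80), Usp18 (-4.65 ± 2.09), Irgm1 (-3.32 ± 1.54), Mx1 (-5.74 ± 2.74) and Ifit1 (-3.30 ± 1.60), with edgeR adjusted p = 0.514 for each. The border group was adenoma 36, 47 and 48, with means over the 39 genes of 5.87, 1.95 and 2.06 on the log2(CPM + 1) scale, and the core adenoma 24, 25 and 51, with 3.97, 2.82 and 1.75. Only adenoma 36 of the border patches lay above all 3 core patches. Without it the median over the genes was 1.69 in place of -1.57, with Irf7 at 0.0126, Irgm1 at 2.40, Oas1a at 2.27, Ifit1 at 1.76 and Ifi27l2a at 1.69. Mx1 stayed lower in value without it (-1.89), and Usp18 lay between -5.23 and -4.17 whichever adenoma was left out. Without adenoma 24 the median was -3.59, and with limma voom it was 0.20. DESeq2 and limma voom called none.

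In carcinoma, the core (6 libraries) against the border (3), none of the 39 passed by edgeR, DESeq2 or limma voom (background 0%) and none had an unadjusted p under 0.05, against 5.63% of all genes (2.43% higher and 3.2% lower). The median was -0.60 (0.15 over all genes), or -0.03 without carcinoma 39. The change of the core-to-border difference between carcinoma and adenoma passed for none of the genes (3 at an unadjusted p under 0.05, against 8.77% of all genes). In metastasis, the lung border (4) against the lung centre (3), none passed (background 0%), and 2 (5.13%) had an unadjusted p under 0.05, both higher at the border, against 8.71% of all genes (5.62% higher and 3.09% lower). These were Cxcl10 (log2 9.0 ± 3.87) and Cmpk2 (4.00 ± 1.93). Without metastasis 58 they were 3.98 and 2.73. DESeq2 called Cxcl10 at a log2 difference of 23.3, with counts in border patches 58 and 56 alone and none at the centre. Limma voom called none. The median was 0.68 (0.30 over all genes), or -0.93 without metastasis 58 and 1.77 without metastasis 42. All border patches were RFP, whereas the centre patches were YFP, RFP and GFP, so position and colour are not separate.

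Counts of the interferons themselves were sparse, with high values in single libraries. Of 18 ligand genes, 16 had a count in any library, and Ifnb1, the usual first type I interferon, had 9 counts in adenoma 50 alone. Ifng had 64 counts over 4 libraries, with a highest value of 5.03 CPM in carcinoma 38. The 3 ligands of highest mean were Ifna13 (84.4 CPM in hyperplasia 33), Ifnl2 (51.9 in adenoma 51) and Ifna1 (29.1 in normal 28). Adenoma 36 and hyperplasia 46 had no ligand count at all, which allows up to 0.318 and 0.247 CPM for a gene, and metastasis 58 had a ligand sum of 9.25 CPM. The highest ligand sum of a stage was in normal 28, hyperplasia 33, adenoma 51, carcinoma 38 and metastasis 56, of which only normal 28 also led its stage in the mean over the 39 genes. Counted by gene, normal 28 was the highest of its stage for 7 of 9 ligands with a count, metastasis 58 for 5 of 8 and carcinoma 6 for 3 of 9, and these libraries led the 39 genes too, whereas hyperplasia 46 and adenoma 36 led for 0 ligands. The interferon alpha genes are near-identical copies, so their separate values are uncertain.

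Receptors and signalling genes were present throughout. The receptor chains Ifnar2, Ifnar1 and Ifngr1 had mean levels of 47.5, 45.1 and 33.9 CPM over the libraries, and the sum over 6 receptor genes ran from 53.2 to 428 CPM. Among kinases and transcription factors, Irf3 and Jak1 had means of 91.6 and 85.2 CPM. Of the sensing adaptors and kinases, Myd88, Tlr3 and Mavs had means of 39.8, 34.3 and 31.3 CPM, and of the negative regulators, Irf2bp2, Adar and Ptpn11 had 98.9, 63.6 and 49.2. The further induced genes were led by Ly6e (mean 3027 CPM, highest in adenoma 36), Ifitm3 (325, highest in metastasis 58) and the immunoproteasome subunit Psmb8 (276, highest in carcinoma 54).

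By edgeR, none of the 3 tested ligands, 6 receptors, 9 kinases and transcription factors, 12 adaptors, 10 negative regulators and 38 further genes passed in any comparison of stages, in the test over 5 stages or in the comparisons of positions, where 11 ligands could be tested. At an unadjusted p under 0.05, the largest count was for the further genes in the adenoma core against the border, with 8 lower and 2 higher of 38, where 4.63% of all genes were lower and 4.82% higher. Adenoma 36, the highest adenoma for 27 of these 38 genes, is 1 of the 3 border patches in that comparison.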

How the data were processed

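RNA of 32 laser-captured patches was amplified with oligo-dT primers after fixation and sequenced, per the labels' protocols. The authors deposited 1 table of raw counts per NCBI gene ID. The labels name quasR beside it, and the submitters' processing notes name STAR and mm10. The annotation, strand setting and treatment of reads with several positions were not given in the sources used here. Of 24454 gene IDs, 24374 matched RefSeq GRCm38.p6, and IDs without a symbol took 26.5% of counts. Total counts per library ran from 2688611 to 19585351, but CPM used TMM effective library sizes. The gene ID with the most counts took 5.20% to 78.9% of a library, the most in metastasis 40. A floor of 3 counts stands for a count of 0 and was 0.130 to 0.856 CPM by library.

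CPM were computed here with TMM scaling in edgeR 4.0.16 (R 4.3.3). The quasi-likelihood test was run on a fit of 5 stages and on a fit of stage and position, with Benjamini-Hochberg adjustment over all genes tested and a threshold of 0.05. DESeq2 1.42.0, limma 3.58.1 (voom with sample weights), other scalings and filters, and leaving out each library were alternatives. The functions were tested on simulated data.

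The 39 genes and the lists were chosen with earlier results of these data known. Genes given by stage are the 8 of highest mean CPM, the 8 of smallest p over the stages, those that passed and those whose promoter is shown. Single values of other genes, such as Siglech and Ifnb1, were chosen after their values were seen. Each library was counted as 1 replicate. Some items are not reported here.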

Additional observations from a re-analysis of the deposited data

Results flagged for a closer look

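In each stage with 4 to 10 libraries, the highest and the lowest library of each gene were set against the others, and 16 of 163 groups (9.82%) held a library whose gap to the next exceeded Dixon's critical value, where chance gives about 1 in 20. Hyperplasia 46 was far above the other hyperplasias for Ifit2 (89.4 CPM), Oasl1 (186) and Herc6 (30.7). In hyperplasia, Cxcl10 was far higher in 22 (29.6 CPM), Ifi27l2a far lower in 22 (0) and Samhd1 far lower in 33 (1.68). Adenoma 36 was far above the other adenomas for Bst2 (51.1 CPM) and Cxcl10 (1.06, from 10 counts). The same held for adenoma 24 with Ifit3 (26.1) and adenoma 34 with Isg15 (30.4). Adenoma 51 was far below for Samhd1 (2.85 CPM) and Sp100 (2.28), and adenoma 50 for Dhx58 (0.679). In carcinoma, Oas1a was far lower in 38 (0 CPM) and Ifih1 in 55 (0.505), and in metastasis Cxcl10 was far higher in 58 (24.9).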

How the results depend on the processing

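The test over 5 stages called no gene with DESeq2, limma voom, detected genes as a covariate or without the 3 libraries of fewest genes (0 each), and 0 to 3 genes when each library was left out, the 3 (Ifit1, Ifit3 and Irf7) without adenoma 36. Between groups, DESeq2 called 1 gene in hyperplasia against normal gland, 1 in adenoma against hyperplasia and 1 in the lung border against the centre. In each of these, 1 group had no count of the gene. Limma voom called 2 in adenoma against normal gland. The median within-stage SD was 2.55 with a pseudocount of 0.25, in place of 2.05. In adenoma against hyperplasia, leaving out each library gave log2 differences of -4.78 to 6.47 for Ifit2 (6.47 without hyperplasia 46), -5.69 to 2.33 for Oasl1 (2.33 without hyperplasia 46) and -6.70 to 0.88 for Cxcl10 (0.88 without hyperplasia 22). In core patches alone Ifit2 was 5.46 and Oasl1 1.16, with limma voom Ifit2 was 0.89, and without the 3 libraries of fewest genes Cxcl10 was 1.05. In the adenoma core against the border, leaving out each library gave -4.75 to 1.76 for Ifit1, -6.22 to 2.27 for Oas1a, -5.56 to 0.0126 for Irf7, -3.89 to 2.40 for Irgm1 and -5.51 to 1.69 for Ifi27l2a, the positive values all without adenoma 36, and limma voom gave 1.08 for Ifi27l2a. The cause of these changes was not tested. The median over the genes of adenoma against normal gland was 0.21 with TMMwsp scaling, in place of -0.18, while all genes had 0.40. No paired analysis was possible because the labels do not tie regions to animals. Between 20 and 39 of the 39 genes had a count in a library, so that at these depths absence cannot be told from low levels.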
